A study of Homo sapiens with 4 samples.

Results

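Double-resistant cultures of the melanoma line A375 were compared, one selected with vemurafenib plus trametinib (RVT) and the other with vemurafenib plus cobimetinib (RVC). A barcode was kept when 500 genes or more were detected and mitochondrially encoded genes made up no more than 20% of its unique molecular identifiers (UMIs, one per captured mRNA molecule). This left 9313 of 10427 RVT barcodes and 8307 of 9266 RVC barcodes, together 17620 of the 28640 cells of the series. The other cells were untreated sensitive A375 cells (S) and cells selected with vemurafenib alone (RV). All 4 cultures derive from this BRAF-mutant line, and each condition was captured once, as 1 library on a 10x Chromium channel loaded with 10000 cells.

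Resistant cells had been grown for 10 to 14 days at 0.5 times the IC50 determined for each inhibitor, and all inhibitors were withdrawn 24 h before capture. The RVC and RVT cells were therefore profiled without drug, and the trametinib and cobimetinib doses were matched on IC50 and not on concentration. With 1 library per condition, the compound, the selected culture and the library cannot be told apart. No test between conditions could be made and no p-value is given. Intervals are exact 95% intervals that cover counting error only.

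Vemurafenib blocks mutant BRAF, the kinase that drives MEK and ERK in these cells. Cobimetinib and trametinib both inhibit MEK1/2, the next kinases of the cascade, by binding next to the ATP pocket. Both carry a fluoro-iodo-anilino group, on different core scaffolds. ERK activity normally drives genes of G1 progression, the AP-1 factor FOSL1 and its own feedback inhibitors of the DUSP and SPRY families. Melanoma cells that survive BRAF and MEK inhibition have been described in states that range from pigmented to neural crest-like and undifferentiated.

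The RVT cells held fewer UMIs, with a median of 2951 UMIs and 1019 genes per cell against 4099 UMIs and 1252 genes in RVC. The summed depths were 28829751 and 37311495 UMIs, so that 3 UMIs, the limit that a count of 0 allows, correspond to 0.104 and 0.0804 CPM. CPM stands for the UMIs of a gene, summed over the kept cells of a library, per 1000000 UMIs of that library. The median mitochondrial share was 5.77% in RVT and 3.58% in RVC. The deposited tables of RVC and RVT shared 149 barcode sequences, 124 of them among kept cells. S and RV had been counted with another gene annotation, so their levels are given for orientation. Epithelial, endothelial and leukocyte marker sets each summed to 9.49 CPM or less in both libraries, and *PTPRC*, which defines leukocytes, had no UMI in either. Fibroblast markers summed to 45.3 in RVC and 36.0 in RVT, with *LUM* at 21.9 and 21.8 and *DCN* at 14.3 and 2.64. The pigment cell genes *PMEL*, *MLANA* and *TYR* had at most 0.107 CPM in RVC and 0.312 in RVT, so these defining genes of melanocytes were at or near 0 in both.

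Of 6529 genes whose level averaged over RVC and RVT reached 10 CPM, 1092 (16.7%) were at least 2-fold higher in RVT and 763 (11.7%) in RVC. A fold of 4 was reached by 223 genes in RVT and 210 in RVC. The median log2 ratio (RVT over RVC) of all compared genes was 0.21, which is the level against which the list medians below are to be read. RVT held 58.9% of the genes past 2-fold, but 34.3% after TMM scaling and 41.6% after centring on the median gene. The ratio also followed transcript length, with a median of -0.19 in the 25% of genes with the shortest transcripts and 0.53 in the 25% with the longest. With cells thinned to equal depth, 1088 and 773 genes passed 2-fold in RVT and RVC. The counts were 1075 and 760 with at most 10% mitochondrial UMIs, and 997 and 669 after centring within bins of transcript length. Beyond these recounts, the part of depth, mitochondrial share and transcript length in the ratios was not tested.

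**Figure D1:**
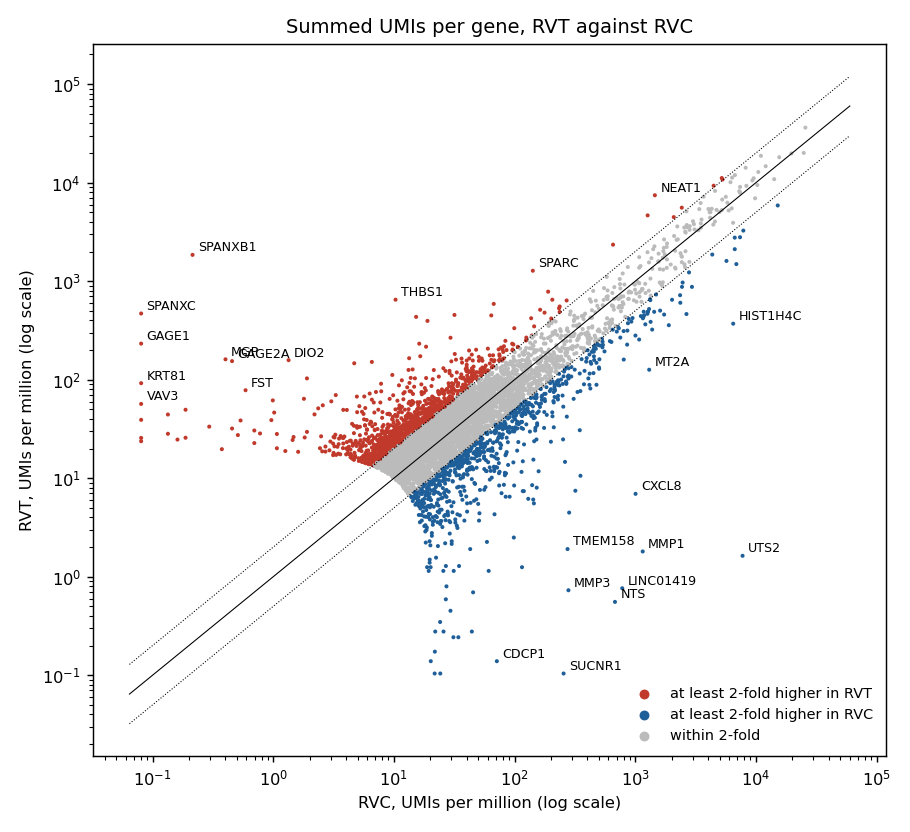
Summed CPM of each compared gene in RVC (x axis) and RVT (y axis), both on log scales, with counts under 3 UMIs drawn at 3. The solid line marks equal levels and the dotted lines 2-fold. *UTS2*, *MMP1* and *SUCNR1* lie far to the RVC side, *SPANXB1*, *KRT81* and *GAGE1* far to the RVT side.

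RVC cells held a set of secreted peptides and proteases that was near 0 in RVT, and chemokines that were low there. The gene with the largest ratio towards RVC was *UTS2* (ENSG00000049247, chromosome 1, 7843083 to 7853512, GRCh38), which encodes the vasoactive peptide urotensin 2. It had 7752 CPM in RVC, 1.63 in RVT, 0.173 in S and 0.217 in RV. *NTS*, the gene of the peptide neurotensin, had 679 CPM in RVC, 0.555 in RVT, 0.535 in S and 0.0543 in RV. *SUCNR1*, a receptor for succinate, had 255 CPM in RVC and no UMI in RVT, S or RV. *UTS2*, *NTS* and *SUCNR1* were thus 4755-fold (interval 3576 to 6472), 1224-fold (interval 754 to 2142) and at least 2448-fold higher in RVC than in RVT. They were close to 0 in the cultures without cobimetinib. The list of neuropeptides and their processing, in which the receptor *SUCNR1* was placed too, had 7 compared members. Of these, 3 were at least 2-fold higher in RVT and 4 in RVC, beside 16.7% and 11.7% of all compared genes. In the same list *SCG5*, a chaperone of prohormone convertase, went the other way with 655 CPM in RVC and 2347 in RVT. *PCSK1*, a prohormone convertase, had 5.68 and 67.5, and *PAM* was the other member higher in RVT, with a log2 ratio of 1.84.

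The matrix-degrading enzymes *MMP1* and *MMP3* followed the same split. *MMP1*, an interstitial collagenase (ENSG00000196611, chromosome 11, 102789920 to 102798160), had 1153 CPM in RVC, 1.80 in RVT, 3.08 in S and 1.30 in RV. *MMP3*, which cleaves several matrix proteins, had 279 CPM in RVC, 0.728 in RVT, 0.0315 in S and 0.0543 in RV. They were 639-fold (interval 487 to 856) and 384-fold (interval 251 to 620.0) higher in RVC. Their inhibitor *TIMP1* was also 5.31-fold (interval 5.20 to 5.42) higher there, at 1897 CPM in RVC and 357 in RVT. *MMP16*, a membrane-bound member, was 5.31-fold (interval 4.86 to 5.80) higher in RVT, and *MMP2* reached 1.97-fold towards RVT, just short of 2-fold. Of 8 compared matrix metalloproteinases and inhibitors, 1 was at least 2-fold higher in RVT and 3 in RVC. The family did not move as one.

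*CXCL8*, the neutrophil chemokine interleukin 8, had 1006 CPM in RVC, 6.94 in RVT, 85.9 in S and 55.4 in RV, and was 145-fold (interval 126 to 167) higher in RVC. It led the inflammatory list, in which of 17 compared members, 3 were at least 2-fold higher in RVT and 9 in RVC (median log2 ratio -1.42). *CXCL1*, *CCL2* and *IL32*, all secreted inflammatory mediators, were 9.28-fold, 11.1-fold and 17.0-fold higher in RVC, from 15.4, 7.04 and 1.14 CPM in RVT. The 3 members higher in RVT included *PTGS2*, an inducible cyclooxygenase, at 3.81 CPM in RVC and 49.4 in RVT, and *IL24*, a cytokine of the IL-10 family, at 6.81 and 58.7. The other 5 members stayed within 2-fold.

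The promoter of *CXCL8* is shown because an AP-1 motif, the letters TGANTCA on either strand, lies in it, 137 bases before the start. It is the window chr4:73740319-73740618 on the plus strand in RefSeq (GRCh38.p14), with the motif in capitals.

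CXCL8: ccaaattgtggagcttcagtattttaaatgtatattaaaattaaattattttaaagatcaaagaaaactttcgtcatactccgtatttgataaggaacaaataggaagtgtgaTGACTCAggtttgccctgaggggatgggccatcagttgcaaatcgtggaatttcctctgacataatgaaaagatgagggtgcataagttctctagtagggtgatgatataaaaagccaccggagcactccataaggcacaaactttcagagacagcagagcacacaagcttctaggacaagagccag

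These letters occurred in 23 of 163 matched promoters of genes at least 4-fold higher in RVC (14.1%), in 11 of 157 of those at least 4-fold higher in RVT (7.01%), in 4.84% of 5284 compared genes and in 7.76% of all 27305 promoters of the same length. At 2-fold the shares were 7.71% in RVC and 5.38% in RVT, and among the 15 largest ratios 1 of 8 matched promoters held the letters in RVC and 3 of 13 in RVT. RVC had the higher share at both folds, and RVT among the 15 largest ratios. Among the RVC genes past 4-fold with a match were *POSTN*, *PDGFRA*, *MT2A*, *IL11* and *PLAUR*. A match is a description of letters and not a binding site. *FOSL1*, a subunit of AP-1 itself, had 117 CPM in RVC, 14.8 in RVT, 163 in S and 341 in RV. *JUN* was 2.56-fold (interval 2.28 to 2.88) higher in RVC. In cells without a G2/M list UMI its log2 ratio turned to 1.51, on 2 UMIs in RVC and 65 in RVT. Only 245 RVC cells (3.10% of thinned cells) and 2796 RVT cells (33.0%) were of this kind, with 1500 UMIs each. Counts in such cells are few, and the members that reach 10 CPM can differ, here and in the recounts below. By contrast *FOS* (51.2 and 67.6) and *FOSB* (41.2 and 67.4) stayed within 2-fold over all kept cells. Of 12 compared AP-1 and immediate-early genes, 0 were at least 2-fold higher in RVT and 2 in RVC, *FOSL1* and *JUN*. The other 10 stayed within 2-fold (median log2 ratio of the list 0.10).

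The remaining genes with the 15 largest ratios towards RVC were *LINC01419*, *CDCP1*, *TMEM158*, *HAS2*, *PAGE2*, *GEM*, *C15orf48*, *ALOX5AP* and *FABP5*. *LINC01419*, a long non-coding RNA, had 780.1 CPM in RVC, 0.763 in RVT, 186 in S and 0.109 in RV. It was thus present in S, near 0 in RV and RVT, and highest in RVC. *HAS2*, which makes hyaluronan, had 115 CPM in RVC, 1.25 in RVT, 1.18 in S and 2.32 in RV. *ALOX5AP*, the activating protein of leukotriene synthesis, had 98.6 CPM in RVC, 2.50 in RVT, 0.267 in S and 0.0904 in RV. *FABP5*, a fatty acid carrier, had 351 CPM in RVC, 10.6 in RVT, 98.6 in S and 103 in RV and was 33.2-fold (interval 29.7 to 37.3) higher in RVC, the smallest ratio of the 15. *CDCP1* and *TMEM158* were 514-fold (interval 200.4 to 1887) and 144-fold (interval 111 to 191) higher.

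**Figure D2:**
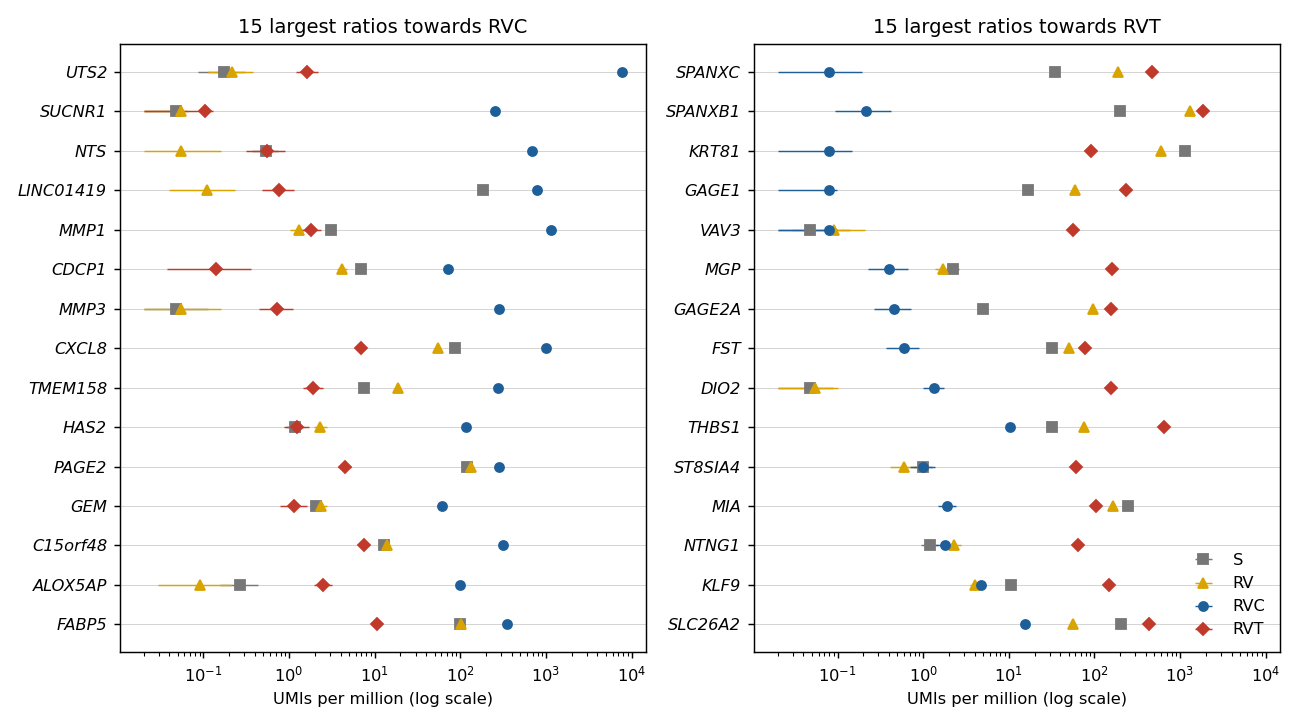
CPM (log scale) of the 15 genes with the largest ratio towards RVC (left) and towards RVT (right) in S, RV, RVC and RVT, with exact 95% Poisson intervals and counts under 3 UMIs drawn at 3. *UTS2* stands at 7752 in RVC only, whereas *SPANXB1* is near 0 in RVC only.

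On the RVT side the largest ratios belonged to cancer-testis antigens, genes normally restricted to the male germ line. *SPANXB1* (ENSG00000227234, chromosome X, 141002591 to 141003706) had 0.214 CPM in RVC, 1849 in RVT, 200.1 in S and 1300.2 in RV. *SPANXC* had 0.0536 CPM in RVC, 469.7 in RVT, 34.6 in S and 188 in RV. *GAGE1* had 232 CPM in RVT, no UMI in RVC, 16.6 in S and 58.8 in RV. The ratios were 8625-fold (interval 4377 to 19979), 8763-fold (interval 2425 to 72367) and at least 2889.5-fold. These antigens were therefore present in S, RV and RVT, and RVC was the library that lacked them. *GAGE2A* (0.456 and 154) went the same way. Members of the SPANX and GAGE families are near-identical copies, so the split of reads between them is uncertain. The list was not uniform. In it, of 14 compared members, 5 were at least 2-fold higher in RVT and 1 in RVC (median log2 ratio 0.31), and *PAGE2* was 63.3-fold (interval 53.2 to 75.9) higher in RVC. *MAGEA11* was 2.87-fold (interval 2.64 to 3.12) higher in RVT.

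*KRT81*, a hair keratin, had 0.0268 CPM in RVC, 92.1 in RVT, 1153 in S and 595 in RV, also a gene that only RVC lacked, with 1 UMI there. *MIA*, a secreted melanoma protein, had 1.90 CPM in RVC, 103 in RVT, 244 in S and 166 in RV, and *FST*, an antagonist of activins, had 0.590 CPM in RVC, 78.1 in RVT, 31.6 in S and 50.1 in RV, both with the lowest level in RVC. Other leading genes were instead high only in RVT. *DIO2*, which activates thyroid hormone, had 1.34 CPM in RVC, 158 in RVT, 0.0157 in S and 0.0181 in RV. *VAV3*, a guanine nucleotide exchange factor, had 56.7 CPM in RVT, no UMI in RVC, 0.0472 in S and 0.0904 in RV. *MGP*, a secreted inhibitor of calcification, had 0.402 CPM in RVC, 161 in RVT, 2.22 in S and 1.70 in RV. *KLF9*, a transcription factor induced by hormone receptors, had 4.69 CPM in RVC, 147 in RVT, 10.6 in S and 4.07 in RV. *SLC26A2*, a sulfate transporter that S cells held too, had 15.3 CPM in RVC, 434 in RVT, 206 in S and 56.0 in RV and was 28.4-fold (interval 26.1 to 31.0) higher in RVT, the smallest of these 15 ratios. *ST8SIA4*, *THBS1* and *NTNG1* completed the set, and the first and last were 62.1-fold (interval 44.9 to 88.5) and 35.6-fold (interval 27.9 to 46.2) higher.

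Most thinned cells of each culture held UMIs of several of its leading genes, but single genes differed widely in their share of cells. The part of free RNA was not tested. Cells were thinned to 1500 UMIs each, which left out 852 shallower cells of RVT and 403 of RVC. At least 3 of the 15 leading RVC genes were detected in 91.2% of 7904 thinned RVC cells and in 0 of 8461 RVT cells, which at 3 counts of the total allows a share of up to 0.0355%. At least 3 of the 15 leading RVT genes were detected in 81.7% of RVT cells and in 0 of the RVC cells, which allows up to 0.0380%. At least 1 was detected in 5.41% of RVT cells for the RVC genes and in 5.39% of RVC cells for the RVT genes. These shares describe genes that the ratio itself chose. *UTS2* had a UMI in 85.3% (84.5 to 86.1) of thinned RVC cells and 0.236% (0.144 to 0.365) of thinned RVT cells, and in 95.1% and 0.440% of all kept cells. *SPANXB1* was detected in 86.6% (85.9 to 87.4) of thinned RVT cells and 0.0253% (0.00306 to 0.0914) of RVC cells, and *THBS1* in 50.8% and 1.23%. *MMP3* was found in 15.9% of RVC cells and *MGP* in 17.5% of RVT cells.

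Genes of the cell cycle were higher in RVC. In the G2/M list, of 45 compared members, 0 were at least 2-fold higher in RVT and 39 in RVC (median log2 ratio -1.59). In the G1/S list, of 26 compared members, 0 were at least 2-fold higher in RVT and 21 in RVC (median log2 ratio -1.56). In cells without a G2/M list UMI, where 13 members were compared, the G1/S counts were 1 and 3 in RVT and RVC. The list sums were 4698 (interval 4676 to 4720.4) CPM in RVC, 1435 (1421 to 1448) in RVT, 1957 in S and 2496 in RV for G2/M. For G1/S they were 1159.9, 390.3, 834 and 1061. RVC stood above and RVT below both cultures without a MEK inhibitor in each list.

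*AURKB*, a mitotic kinase, had 68.2 CPM in RVC, 4.30 in RVT, 40.8 in S and 54.7 in RV and was 15.9-fold (interval 13.2 to 19.1) higher in RVC. *CDC20*, an activator of the anaphase-promoting complex, had 35.2 CPM in RVC, 4.20 in RVT, 69.3 in S and 115 in RV. *BIRC5*, the survivin gene, had 83.1 CPM in RVC, 10.7 in RVT, 58.1 in S and 68.9 in RV. *GMNN*, which restrains DNA re-licensing, had 49.9 CPM in RVC, 5.48 in RVT, 23.1 in S and 29.6 in RV, and *CDK1* was 4.81-fold (interval 4.38 to 5.29) higher in RVC. *CBX5* (115 and 104) and *LBR* (16.6 and 19.5) were members within 2-fold. The replication-dependent histone *HIST1H4C* had 6484 CPM in RVC, 370.3 in RVT, 3213 in S and 3041 in RV. Histones did not go 1 way, since of 14 compared members, 3 were at least 2-fold higher in RVT and 4 in RVC. *HIST1H2AC* and *HIST2H2BE* had log2 ratios of 5.19 and 3.96, towards RVT. *CDKN1B*, an inhibitor of cyclin-dependent kinases, was 5.09-fold (interval 4.50 to 5.76) higher in RVT, at 8.82 CPM in RVC and 44.8 in RVT, and *CDKN1A*, the p21 gene, was within 2-fold, at 133 and 114.

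At equal depth more RVC than RVT cells had UMIs of the G2/M list. At least 1 UMI of the G2/M list was found in 96.9% of thinned RVC cells and 67.0% of RVT cells. At least 5 were found in 66.6% (interval 65.5 to 67.6) of RVC cells, 6.42% (5.90 to 6.96) of RVT cells, 19.6% of S and 29.6% of RV cells. The order changed among the cells richest in these UMIs. At least 20 were found in 1.70% (1.44 to 2.001) of RVT cells and 1.23% (0.996 to 1.495) of RVC cells, intervals that overlap narrowly. *CKS1B*, the most abundant member, gave 18.4% of the list's thinned UMIs in RVC and 16.5% in RVT. Free RNA in droplets adds UMIs to cells that do not express a gene, its part in these shares was not tested, and no cell was assigned to a phase.

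**Figure D3:**
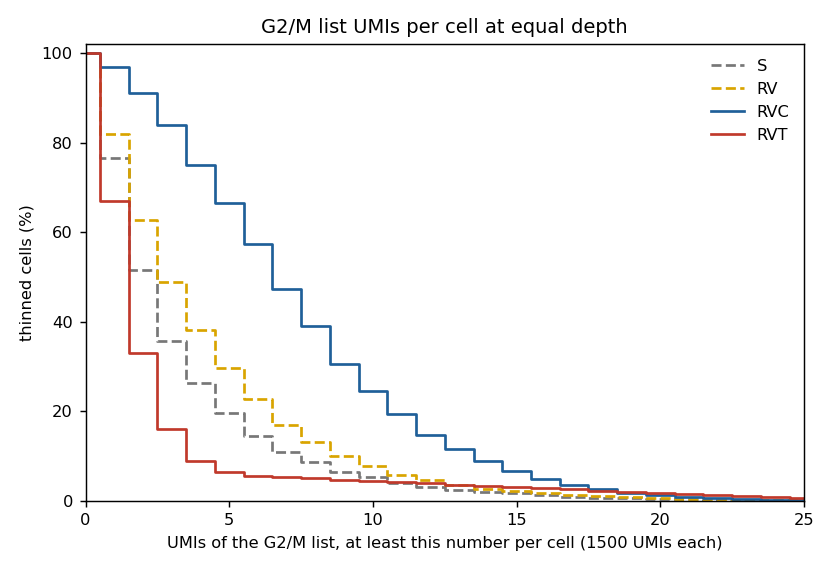
Share of thinned cells (y axis, %) with at least a given number of UMIs of the G2/M list (x axis), each cell thinned to 1500 UMIs, in S, RV, RVC and RVT. The RVC curve lies above the other libraries up to 18 UMIs, and the RVT curve drops first but has a long tail.

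Promoters of G2/M genes are shown because many hold the CHR motif, the letters TTTGAA on either strand, through which the DREAM complex is known to act on mitotic genes. Of 39 list members with a promoter in the RefSeq table, 30 held it (76.9%), against 15.4% of all promoters and 10.1% of those of compared genes. The share was 17.1% for genes at least 2-fold higher in RVC and 9.74% for those in RVT. At 4-fold it was 23.3% and 15.3%, and among the 15 largest ratios 2 of 8 and 3 of 13 matched promoters held it. G2/M list members were not taken out of these groups, and 39 of the 45 compared ones were in the 2-fold RVC group. The RVC share therefore partly repeats that of the list. The E2F motif (TTTCCCGC or TTTGGCGC, either strand) occurred in 6.87% and 2.75% of the 2-fold groups and in 4.22% of compared genes. The 3 matched members with the largest ratio towards RVC were *CDC20* (chr1:43358731-43359030), *GTSE1* (chr22:46296620-46296919) and *NCAPD2* (chr12:6493852-6494151), all on the plus strand of GRCh38.p14, with CHR letters in capitals. CHR and AP-1 letters can share bases.

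CDC20: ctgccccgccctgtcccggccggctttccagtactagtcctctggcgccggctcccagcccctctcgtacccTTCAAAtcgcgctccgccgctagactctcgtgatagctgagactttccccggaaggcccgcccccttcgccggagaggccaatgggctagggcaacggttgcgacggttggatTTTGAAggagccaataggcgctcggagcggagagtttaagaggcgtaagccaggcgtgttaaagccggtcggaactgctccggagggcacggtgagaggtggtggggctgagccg
GTSE1: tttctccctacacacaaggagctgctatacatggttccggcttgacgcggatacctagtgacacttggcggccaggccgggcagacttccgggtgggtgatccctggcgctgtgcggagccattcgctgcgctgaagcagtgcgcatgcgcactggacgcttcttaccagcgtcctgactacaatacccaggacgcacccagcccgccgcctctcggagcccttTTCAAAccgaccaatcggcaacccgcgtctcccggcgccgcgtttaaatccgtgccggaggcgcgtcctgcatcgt
NCAPD2: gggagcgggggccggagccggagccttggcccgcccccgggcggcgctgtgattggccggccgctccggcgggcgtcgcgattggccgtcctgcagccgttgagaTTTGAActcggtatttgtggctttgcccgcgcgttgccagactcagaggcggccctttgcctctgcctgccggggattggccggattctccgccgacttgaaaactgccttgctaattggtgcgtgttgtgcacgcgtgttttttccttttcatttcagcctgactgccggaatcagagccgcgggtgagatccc

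The match of *GTSE1* began 26 bases before the start, that of *NCAPD2* 145 bases before it, and those of *CDC20* 178 and 65 bases before it.

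In the RAS-RAF-MEK-ERK list, of 16 compared members, 3 were at least 2-fold higher in RVT and 0 in RVC (median log2 ratio 0.48), beside 16.7% and 11.7% of all compared genes. *BRAF* itself had 10.5 CPM in RVC, 22.4 in RVT, 3.37 in S and 5.61 in RV, and was 2.14-fold (interval 1.89 to 2.43) higher in RVT. The target genes of both MEK inhibitors, *MAP2K1* (35.7 and 31.2) and *MAP2K2* (13.4 and 16.4), stayed within 1.5-fold, as did *HRAS*. *SHC1*, an adaptor of receptor tyrosine kinases, and *NF1*, which inactivates RAS, were 2.39-fold and 2.01-fold higher in RVT. After TMM scaling all of *BRAF*, *SHC1* and *NF1* fell below 2-fold, and the counts were 0 and 0 in RVT and RVC. They were 1 and 0 after centring on the median gene or by transcript length.

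In the ERK output list, of 16 compared members, 2 were at least 2-fold higher in RVT and 4 in RVC (median log2 ratio -0.08). The counts were 1 and 6 after TMM scaling and after centring on the median gene, and the median lay -0.29 from that of all compared genes. In cells without a G2/M list UMI, where 15 members were compared, the counts were 3 and 3. The sign of the median turned positive in those cells, after centring by GC content and without ribosomal protein and mitochondrial genes in the library size. *DUSP6*, the ERK phosphatase, had 66.5 CPM in RVC, 22.9 in RVT, 56.1 in S and 65.0 in RV, and was 2.90-fold (interval 2.66 to 3.16) higher in RVC. *CCND1*, cyclin D1, had 58.7 CPM in RVC, 28.9 in RVT, 216 in S and 342 in RV, below S and RV in both. *SPRY1*, a feedback inhibitor of receptor signalling, had 2.57 CPM in RVC, 54.9 in RVT, 14.8 in S and 11.3 in RV and was 21.4-fold (interval 17.4 to 26.5) higher in RVT. *LIF* was 3.26-fold higher in RVC and *SPRED1* 2.21-fold higher in RVT.

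Among receptor tyrosine kinases and their ligands, of 15 compared members, 6 were at least 2-fold higher in RVT and 4 in RVC (median log2 ratio 0.75), or 4 and 4 after TMM scaling. RVC held *FGF5*, a fibroblast growth factor, at 31.3 CPM against 1.14 in RVT, *PDGFRA* at 19.8 against 1.39 and *FGFR1* at 63.3 against 11.9. RVT held *FGF2* at 30.3 against 7.93 and the collagen receptor *DDR1* at 21.4 against 5.52. *PDGFRA* had 0.330 in S and 0.163 in RV, so its highest level was in RVC. *AXL* (77.1 and 99.1) and *EGFR* (7.48 and 14.7), which mark undifferentiated melanoma cells, stayed within 2-fold.

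Matrix genes leaned to RVT. In the extracellular matrix list, of 23 compared members, 12 were at least 2-fold higher in RVT and 4 in RVC (median log2 ratio 1.28). In cells without a G2/M list UMI the counts were 11 and 5 and the median 0.60. *THBS1*, thrombospondin 1, had 10.3 CPM in RVC, 649 in RVT, 32.4 in S and 74.7 in RV and was 62.9-fold (interval 56.8 to 69.7) higher in RVT. *SPARC*, a matrix-binding glycoprotein, had 142 CPM in RVC, 1277 in RVT, 321 in S and 257 in RV. *COL9A3* had 0.134 CPM in RVC, 28.2 in RVT, 219.7 in S and 134 in RV. *COL3A1*, a fibrillar collagen, was the main exception with 119 in RVC, 7.39 in RVT and no UMI in S or RV, and *COL7A1* was 14.0-fold higher in RVC. *POSTN*, another matrix protein, had 18.8 CPM in RVC, 1.25 in RVT, 0.0472 in S and 0.0724 in RV.

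Growth factor and complement lists had more members past 2-fold in RVT than in RVC. In the BMP and ID list, of 7 compared members, 4 were at least 2-fold higher in RVT and 0 in RVC (median log2 ratio 1.43). *ID3* and *ID1*, inhibitors of basic helix-loop-helix factors and targets of BMP signalling, had 395 and 267 CPM in RVT, 19.0 and 29.5 in RVC, and 248 and 228 in S. They were 20.8-fold (interval 19.3 to 22.5) and 9.05-fold (interval 8.49 to 9.65) higher in RVT, and the RVC levels were the ones farther from S. In the TGF-beta list, of 13 compared members, 6 were at least 2-fold higher in RVT and 4 in RVC (median log2 ratio 0.94), or 5 and 5 after TMM scaling, and the median was 0.34 in cells without a G2/M list UMI. The ligand *TGFB2* had 18.5 CPM in RVC, 104 in RVT, 0.865 in S and 0.651 in RV. In the YAP-TEAD list, of 17 compared members, 8 were at least 2-fold higher in RVT and 1 in RVC (median log2 ratio 0.98). *CYR61* was 2.70-fold (interval 2.53 to 2.89) and *CRIM1* 4.39-fold (interval 4.01 to 4.80) higher in RVT, but *NT5E* was 11.6-fold (interval 9.70 to 14.0) higher in RVC. *ANKRD1*, a YAP target that was high in S (99.5) and RV (172), had 0.214 in RVC and 3.09 in RVT. Of 5 IGF binding proteins, 3 were at least 2-fold higher in RVT, namely *IGFBP3* (6.57 and 151), *IGFBP7* (9.70 and 112) and *IGFBP4* (16.5 and 173), and *IGFBP5* was 1.23-fold higher in RVC. In the complement list, of 9 compared members, 5 were at least 2-fold higher in RVT and 0 in RVC (median log2 ratio 1.17), or 3 and 0 in cells without a G2/M list UMI, led by *CD55* (4.07 and 49.3), *C3* (25.7 and 131) and *C1S* (17.7 and 73.6).

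**Figure D4:**
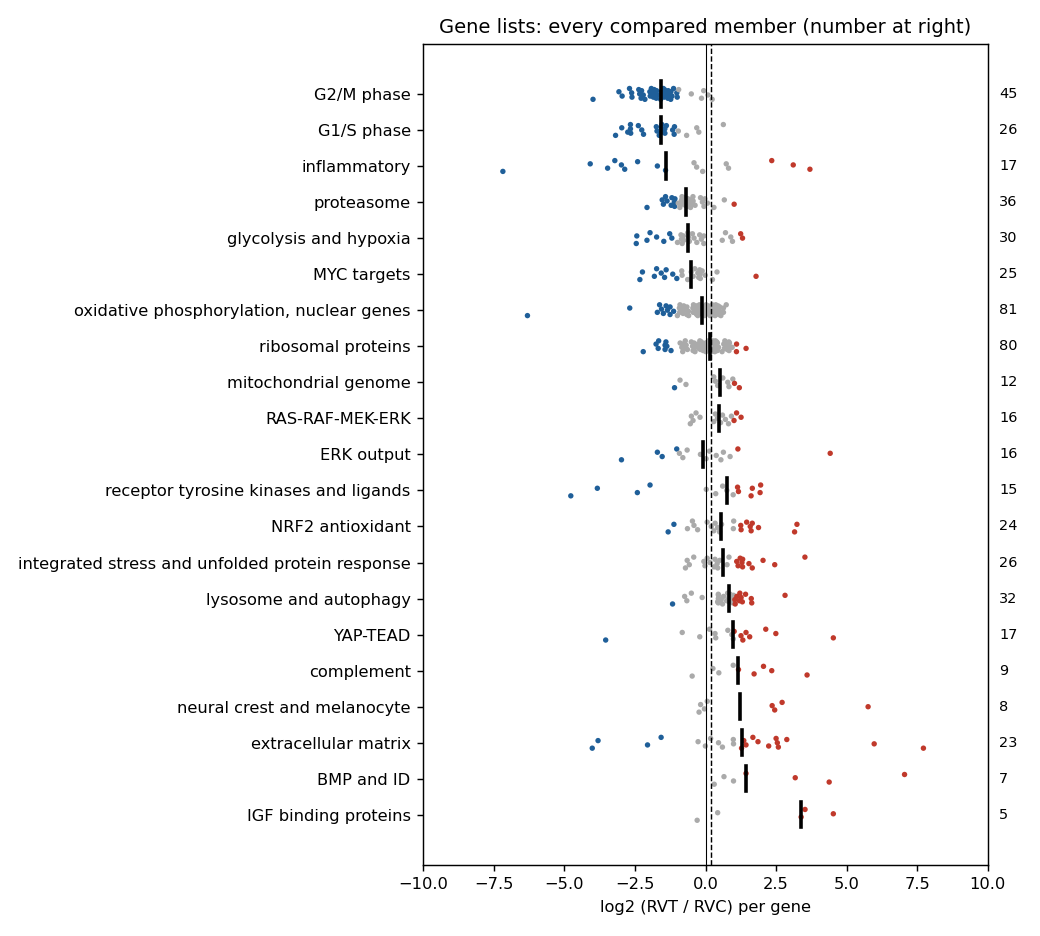
Log2 ratio (RVT over RVC) of every compared member of 21 gene lists (points, one per gene, red at least 2-fold higher in RVT, blue at least 2-fold higher in RVC), with the list median (black bar) and the median of all compared genes (dashed line at 0.21). G2/M, G1/S and inflammatory genes lie to the left, and matrix, BMP and ID, and IGF binding protein genes to the right.

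Some genes of the neural crest and melanocyte lineage were higher in RVT. In their list, of 8 compared members, 4 were at least 2-fold higher in RVT and 0 in RVC (median log2 ratio 1.21). With all deposited barcodes, where 7 members were compared, 3 and 0 passed 2-fold in RVT and RVC and the median was 0.06. *MITF*, the master factor of pigment cells, had 7.99 CPM in RVC, 41.0 in RVT, 9.61 in S and 20.02 in RV, and was 5.13-fold (interval 4.52 to 5.85) higher in RVT. *TFAP2A*, a neural crest factor, was 6.55-fold (interval 5.59 to 7.72) higher in RVT. The 6 neural crest-like markers, *SOX10* and *NGFR* among them, summed to 0.911 CPM in RVC, 20.8 in RVT, 192 in S and 74.1 in RV, with 3 of them at 0 in RVC. *SOX10*, which maintains neural crest derivatives, had no UMI in RVC, 19.5 CPM in RVT, 87.6 in S and 40.2 in RV, and was at least 242-fold higher in RVT. It fell just short of the level required for the compared genes. *NGFR* had 0.456 in RVC and 0.0347 in RVT, near 0 in both. Of 12 epithelial-mesenchymal genes, 1 passed 2-fold in RVT and 2 in RVC (median log2 ratio -0.48), with *VIM* at 561 and 330.5. The counts were 1 and 6 after TMM scaling and 1 and 4 after centring on the median gene. They were 1 and 1 in cells with at most 10% mitochondrial UMIs, where 11 of the genes reached the level required for comparison.

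Stress and degradation programs separated as well. In the integrated stress and unfolded protein response list, of 26 compared members, 11 were at least 2-fold higher in RVT and 0 in RVC (median log2 ratio 0.63), or 7 and 1 after TMM scaling. *SLC7A5* and *SLC3A2*, which form 1 amino acid transporter, were 11.5-fold (interval 10.02 to 13.2) and 4.10-fold (interval 3.55 to 4.76) higher in RVT, at 72.3 and 27.1 CPM, and both cultures lay below S (103 and 150.3). *SLC7A11*, the cystine transporter, was 3.15-fold (interval 2.83 to 3.51) higher in RVT. In the NRF2 list, of 24 compared members, 9 were at least 2-fold higher in RVT and 2 in RVC (median log2 ratio 0.53). The aldo-keto reductases *AKR1C3* (4.96 and 46.8) and *AKR1C2* (5.79 and 51.5), which are close paralogs, led it, with *FTH1*, ferritin heavy chain, at 1267 CPM in RVC and 4654 in RVT and *TXNRD1* 3.06-fold higher in RVT. In the lysosome and autophagy list, of 32 compared members, 11 were at least 2-fold higher in RVT and 1 in RVC (median log2 ratio 0.83), or 4 and 2 after TMM scaling and 7 and 1 after centring on the median gene, with *GABARAPL1* 7.04-fold (interval 6.30 to 7.89) and *CTSC* 3.07-fold (interval 2.91 to 3.24) higher in RVT. The proteasome went the other way, since of 36 compared members, 1 was at least 2-fold higher in RVT and 10 in RVC (median log2 ratio -0.71), or 0 and 19 after TMM scaling and 1 and 5 after centring by transcript length, with *PSMC3* 4.21-fold (interval 3.96 to 4.47) and *PSMD14* 2.81-fold (interval 2.66 to 2.97) higher in RVC. Both compared metallothioneins, *MT2A* (1305 and 126) and *MT1X* (505 and 161), were higher in RVC.

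Some glycolytic and growth genes were higher in RVC. In the glycolysis and hypoxia list, of 30 compared members, 2 were at least 2-fold higher in RVT and 8 in RVC (median log2 ratio -0.62), or 1 and 14 after TMM scaling and 4 and 15 in cells without a G2/M list UMI. *ENO1* had 1077 CPM in RVC and 256 in RVT, *LDHA* 1212 and 365, and *TPI1* 2441 and 876. The hypoxia-induced growth factor *VEGFA* was 3.91-fold (interval 3.37 to 4.55) higher in RVC. Among MYC targets, of 25 compared members, 1 was at least 2-fold higher in RVT and 9 in RVC (median log2 ratio -0.51), or 2 and 5 in cells without a G2/M list UMI, with nucleolin (*NCL*) 5.02-fold (interval 4.86 to 5.18) and *PA2G4* 4.71-fold (interval 4.52 to 4.91) higher in RVC. *MYC* itself had 0.884 CPM in RVC, 2.05 in RVT, 20.6 in S and 18.5 in RV, so it was lower in both double-resistant cultures than in S and RV. Of 81 nuclear genes of oxidative phosphorylation, 0 were at least 2-fold higher in RVT and 11 in RVC, beside 16.7% and 11.7% of all compared genes. The RVC count thus lay near the share of all genes. The counts were 0 and 19 after TMM scaling (598 and 1147 of all 6529 genes). Centring by transcript length gave 3 and 7 (997 and 669 of all), and the median turned from -0.14 to 0.12. The largest ratios towards RVC were those of *COX7B2* (22.0 and 0.277) and *NDUFA3* (271 and 42.1). Of 12 genes of the mitochondrial genome, 2 were higher in RVT, *MT-ND1* (2430.2 and 5572) and *MT-CO1* (5293 and 10772), and 1 in RVC, *MT-ND6*. After TMM scaling and after centring on the median gene the counts were 0 and 2, and neither RVT gene reached 2-fold. They were 6 and 0 after centring by transcript length and 3 and 0 with a library size without ribosomal protein and mitochondrial genes, so the split depended on the scaling. These values lie beside the higher mitochondrial share of RVT cells given above.

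The largest differences in CPM fell on abundant transcripts. Towards RVC these were *RPL37A*, *UTS2*, *HIST1H4C*, *RPL35*, *MALAT1*, *GAPDH*, *RPS29*, *RPS19*, *S100A6* and *TMSB10*, and towards RVT *FTL*, *RPS23*, *NEAT1*, *MT-CO2*, *RPS4X*, *MT-CO1*, *RPL11*, *RPS6*, *EEF1A1* and *RPS3*. The ribosomal protein genes stood on both sides. Their list of 80 had 3 members past 2-fold in RVT and 9 in RVC (median 0.15), beside 16.7% and 11.7% of all compared genes. The RVC count thus lay near the share of all genes. After TMM scaling the counts were 1 and 15 (598 and 1147 of all 6529 genes), with a list median of -0.16. Centring within bins of transcript length gave 11 and 9 (997 and 669 of all) with a list median of 0.44, so the split depended on the scaling. *RPL35* had 6886 CPM in RVC, 1491 in RVT, 5014 in S and 5093 in RV, and *RPL17* was 2.70-fold (interval 2.63 to 2.79) higher in RVT. *NEAT1*, the scaffold RNA of nuclear paraspeckles, had 1454 CPM in RVC, 7449 in RVT, 466 in S and 773 in RV and was 5.12-fold (interval 5.08 to 5.17) higher in RVT, while the nuclear RNA *MALAT1* stayed within 2-fold, at 24911 and 20046. *S100A6*, a calcium-binding protein, had 5701 CPM in RVC, 1605 in RVT, 9377 in S and 14129 in RV.

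The study labels its cell states C1 to C7 and names genes for them. Of 9 compared genes named for C2 and C4, 2 were at least 2-fold higher in RVT, the keratins *KRT81* and *KRT18* (57.7 and 139). In RVC 5 were, *FOSL1*, *CDK1*, *UBE2S*, *RANBP1* and *STMN1*. In cells without a G2/M list UMI the counts were 2 and 2, but *CDK1* belongs to that list and has no UMI there by selection. Of 8 compared genes named for C6, 4 were at least 2-fold higher in RVC, *UTS2*, *NTS*, *MMP1* and *SUCNR1*, and 2 in RVT, *NEAT1* and *PTGS2*. *KLF4*, *SETD1A* and *PCSK6* lay under the level of the compared genes, with log2 ratios of -0.29, 0.44 and -0.36. *EGR1* (97.6 and 114) stayed within 2-fold, and *POU5F1*, a pluripotency factor, had 0.0536 and 0.0347 CPM, under the limit that a count of 0 allows in both. Of those named for C3, *NEAT1*, *KDM5B*, *MTOR* and *HIST1H1C* were 5.12-fold, 3.05-fold, 2.55-fold and 2.28-fold higher in RVT, and *MDM2*, *FAM3C* and *GSN* stayed within 1.5-fold. Of those named for C5, *EEF1A1* was 2.09-fold (interval 2.07 to 2.10) higher in RVT and *S100A6* 3.55-fold (interval 3.52 to 3.59) higher in RVC, while *RPL31*, *RPL7A* and *RACK1* stayed within 2-fold. Of those named for C7, *MARCKS* was 2.95-fold (interval 2.83 to 3.08) and *BRAF* 2.14-fold higher in RVT (*MARCKS* alone passed 2-fold after TMM scaling), *DDX10* stayed within 1.5-fold, and 6 of 9 lay under the level of the compared genes. Of these *EPO* was at the limit of detection, *TSPAN8*, a tetraspanin, had 0.563 CPM in RVC and 0.104 in RVT, and *PDE6B*, a phosphodiesterase subunit, had 0.295 CPM in RVC and no UMI in RVT. Towards RVT, *SPANXD* had 0.0268 CPM in RVC and 1.77 in RVT, *GUCY1B1*, a guanylate cyclase subunit, had no UMI in RVC and 0.659 CPM in RVT, and *WDR63* had 0.322 CPM in RVC and 0.694 in RVT. These genes were chosen by the study on these samples and are no independent evidence of a direction.

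Ratios differed by chromosome. Compared genes of chromosome 18 had a median log2 ratio (RVT over RVC) of 0.88 over 104 genes, and 76.9% of them lay above the median of all compared genes. On chromosome 20 the median was 0.78 over 191 genes, with 71.7% above. Chromosome 1 followed with 0.50 over 724 genes and chromosome 5 with 0.46, while chromosome 2 lay lowest at -0.11. The other chromosomes lay between -0.02 (chromosome 19) and 0.38 (chromosome 9).

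Against S, which both comparisons share, chromosome 20 had a median of -0.34 in RVC and 0.34 in RVT, beside 0.42 and 0.53 for all compared genes. Chromosome 18 had 0.32 in RVC, 1.17 in RVT and 0.36 in RV, where all compared genes were at 0.01. On this scale chromosome 20 was low in RVC and chromosome 18 high in RVT, while chromosome 19 was low in both. Centring within bins of transcript length left chromosome 18 at 0.53 and chromosome 20 at 0.54 above the median of all genes, and centring by GC content at 0.54 and 0.57. The DNA content of the cultures was not measured. *SMAD2*, on chromosome 18, was 4.56-fold (interval 4.18 to 4.97) higher in RVT, and *ID1*, on chromosome 20, belongs to the BMP targets above.

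**Figure D5:**
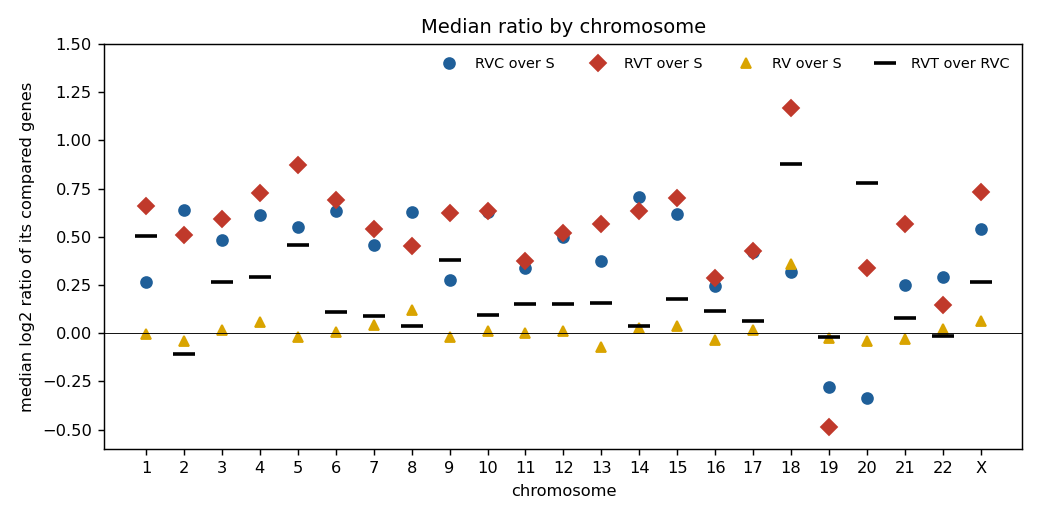
Median log2 ratio of the compared genes of each chromosome (y axis) for RVT over RVC (black bars), and for RVC (circles), RVT (diamonds) and RV (triangles) each over S. Chromosomes 18 and 20 carry the highest black bars, at 0.88 and 0.78.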

How the data were processed

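Counts were analysed as the authors deposited them, integer UMI counts of genes by barcodes from 4 libraries, 1 per condition. According to the labels and the study's methods they came from bcl2fastq 2.20.0.422 and Cell Ranger (version not given in the sources used here) on GRCh38. RVC and RVT share 1 annotation of 33538 genes. S and RV were counted with another of 33694, so their levels serve for orientation. Gene names and positions were taken from GENCODE 29, which matched 33456 RVC and RVT identifiers. No column was left unmapped, and no doublets were removed.

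UMIs were summed per library. A count of 0 was taken at 3 UMIs, which makes the ratio a bound. Ratios had exact binomial and levels exact Poisson intervals (scipy 1.17.1), and shares of cells Clopper-Pearson intervals, all covering counting error only. Thinning drew 1500 UMIs per cell. TMM factors came from edgeR 4.0.16. The summing and the intervals were tested on simulated counts with 200 changed genes. Motif letters were searched in windows of 250 bases before to 50 after RefSeq starts (GRCh38.p14), for which 5284 of the 6529 compared genes were matched by symbol.

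Named were the 15 largest ratios per direction (higher level 50 CPM or more), the 10 largest CPM differences, up to 6 members per list by absolute log2 ratio plus defining members and counterexamples, and genes the study named for its states. A few genes that this rule names are not reported here. Among AP-1 matches and the LBR and CBX5 counterexamples, genes were chosen after their values were seen. The cultures compared and the gene lists were chosen with earlier results of these data known. Alternatives were other cell filters, scalings, weightings and minimum levels.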

Additional observations from a re-analysis of the deposited data

How the results depend on the processing

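No paired analysis was possible because each condition is 1 library. The 2-fold counts (1092 higher in RVT, 763 in RVC) stayed within 1.5 times under the other cell filters, removal of the 694 RVT and 552 RVC barcodes with the most UMIs, equal weight per cell, thinning, a library size without ribosomal protein and mitochondrial genes, cells without a G2/M list UMI, and centring within bins of GC content or, chosen after seeing the data, of transcript length. TMM scaling shifted the median of all compared genes by -0.31 (log2) and gave 598 and 1147 genes. Centring on the median gene shifted it by -0.21 and gave 717 in RVT and 1007 in RVC, and leaving ribosomal protein and mitochondrial genes out of the library size shifted it by 0.11. Counts were 206 and 307 with at least 50 CPM, where 1797 genes were compared, 4616 and 2602 among 17491 genes with more than 3 UMIs, and 223 and 210 at 4-fold.

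Of 246 named genes past 2-fold, 28 fell under it after TMM scaling, 28 after centring by transcript length, 36 in cells without a G2/M list UMI and 0 with all deposited barcodes. The sign turned for 6 of them, all in cells without a G2/M list UMI, where 245 RVC and 2796 RVT cells remained and counts were few. The log2 ratio was then -2.10 for *SPANXD*, -1.01 for *ANKRD1*, -2.29 for *GUCY1B1*, -2.10 for *MYC*, -0.24 for *SOS2* and 1.51 for *JUN*. The first 4 of these had no UMI in RVC there, so that the value rests on the 3 UMIs taken for 0, and *SOS2* and *JUN* had 3 and 2. Of 647 list medians recomputed, 12 moved by more than 1.5-fold and none with a median past 2-fold changed sign. A gene at 10 CPM rests on about 288 UMIs in RVT and 373 in RVC.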

Other observations

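Counts in smaller gene groups follow, beside 16.7% of all compared genes past 2-fold in RVT and 11.7% in RVC. The integrin counts lay near these shares, and groups this small are not read as programs of either culture. Of 8 MHC class II genes, 3 were at least 2-fold higher in RVT, among them *HLA-DRA* (12.9 and 83.7 CPM in RVC and RVT) and the invariant chain *CD74* (163 and 513), and 3 in RVC, among them *HLA-DPB1* and the protease *CTSS*, or 4 and 1 in RVT and RVC after centring by transcript length. Of 19 interferon response genes, 6 were higher in RVT, with *STAT2* at 13.9 and 55.2 CPM, and 1 in RVC, *BST2*. The interferon counts were 4 and 4 in cells without a G2/M list UMI, where 21 were compared. Of 9 histone demethylases, *KDM5B*, *KDM4A* and *KDM3B* were 3.05-fold, 2.72-fold and 2.38-fold higher in RVT, and 0 reached 2-fold in RVC. *RUNX2* was 2.30-fold (interval 2.05 to 2.59) higher in RVC and *RUNX1* 2.54-fold (interval 2.22 to 2.91) higher in RVT. Of 14 p53 targets, 3 were higher in RVT, with *ZMAT3* the largest, and 3 in RVC (1 and 3 after TMM scaling), with the death receptor *FAS* (21.1 and 4.02) the largest. Among the heat shock proteins, *HSPB1* was 4.402-fold (interval 4.15 to 4.67) and *HSP90AA1* 2.75-fold (interval 2.70 to 2.81) higher in RVC, and of 16 members 4 passed 2-fold there and 1 in RVT. The heat shock counts were 3 and 1 in RVT and RVC in cells without a G2/M list UMI and 1 and 2 after centring by transcript length. Of 9 S100 genes, 3 were higher in RVC and 1 in RVT. Of 10 integrins, *ITGB8* (1.07 and 20.1) and *ITGA1* were higher in RVT and *ITGA2* (154 and 36.1) in RVC, or 1 and 2 in RVT and RVC after TMM scaling. Of 12 selenoprotein genes, *DIO2*, *TXNRD1* and *GPX4* passed 2-fold, all in RVT, or 2 and 1 in RVT and RVC after TMM scaling, and *GPX4* was far lower in both (21.7 and 51.5) than in S (335).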
